A study of Mus musculus with 2 samples.

Results

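Cadherin and protocadherin genes were described across the cell classes of the mouse dorsal telencephalon at E14.5. They were chosen by symbol, as every gene named Cdh followed by a number or Pcdh followed by digits or lower-case letters, with at least 20 UMIs (molecular tags, each marking 1 captured transcript) in each library over barcodes of at least 1000 genes and at most 10% mitochondrial UMIs. Of the 32285 genes in the tables, 92 had such a symbol and 71 reached the minimum. These were 17 cadherins, 12 protocadherins outside the protocadherin gene clusters and 42 members of the clusters. No level was used to choose them beyond that minimum.

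Cadherins are calcium-dependent adhesion proteins of the cell surface. The classical cadherins, of type I and type II, bind the same or a related cadherin on the next cell and connect through catenins to actin. In the cerebral cortex they hold the ventricular surface together, and type II members mark regions, layers and connected neurons. Most non-clustered protocadherins fall into the delta-1 and delta-2 groups, whereas the clustered protocadherins lie in 3 tandem arrays (alpha, beta and gamma), from which single neurons express different combinations.

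Both libraries came from wild-type (WT) embryos of the EomesDot line, described in the series title as control animals of an Eomes-Cre mouse line, so no treatment or genotype was compared. The study describes its E14.5 embryos as C57BL/6J, and how the lines relate was not stated. The tissue label was brain hemispheres, and the protocol names the dorsal telencephalon. The libraries are named replicates 2 and 4 here after the last number in their titles. The titles share the number before it, and whether that marks a litter and whether each library holds 1 embryo was not stated. A pair of values below gives replicate 2 first and replicate 4 second, and p-values measure only the spread between these 2 libraries.

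Replicate 2 held 40267872 UMIs in 1712 barcodes and replicate 4 held 49422007 in 2589, of which 1197 and 1956 cells were retained. The libraries shared 3 barcode sequences, 1 of them after filtering. Cells like radial glia (RGC-like) numbered 240 and 425, intermediate progenitor cell (IPC)-like cells 190 and 318, excitatory neuron-like cells 451 and 646, and interneuron-like cells of the medial ganglionic eminence (MGE) 54 and 82. The summed markers of each of these 4 classes were higher in it than in the other 3. In MGE interneuron-like cells 2 of 14 RGC markers and 2 of 12 excitatory neuron markers were at 0 UMIs, and the 12 summed to 1779 and 1833 CPM, against 637 and 716 in RGC-like and 8497 and 8650 in excitatory neuron-like cells. Cells of the Cajal-Retzius-like class (16 and 24), hem or choroid plexus-like class (33 and 22), meningeal fibroblast-like class (19 and 34) and endothelial-like class (9 and 18) were few. Summed erythroid markers stood at 77.9 and 2409 CPM in RGC-like cells 124 and 683 in excitatory neuron-like cells and 91.9 and 45563 in endothelial-like cells, and their part in the results was not tested. A cluster of 66 and 141 cells carried markers of both IPCs and excitatory neurons and was left unnamed. Levels are counts per 1000000 UMIs of a class sum (CPM). Because a kit that tags 3′ ends sets how well each transcript is caught, levels were compared between classes for a gene and never between genes. Fewer transcribing cells and less RNA per cell cannot be told apart in a class sum.

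Every type of member was found. The 71 included 3 of 5 type I cadherins, 12 of 13 type II cadherins, the glycolipid-anchored Cdh13, 1 of 4 other cadherins (Cdh23), all 4 delta-1 and all 5 delta-2 protocadherins and 3 of 3 other protocadherins. They included 8 of 14 alpha, 13 of 22 beta and 21 of 21 gamma genes. Just inside the minimum were Pcdha8 with 25 and 25 UMIs, Pcdhb6 with 25 and 24 and Pcdhb4 with 24 and 31. Just outside were Pcdhb11 with 18 and 19, Pcdha2 with 17 and 26 and Pcdha7 with 20 and 16. Cdh1, the E-cadherin of epithelia, had 14 and 6 UMIs, and Pcdhb1 had 0 in both libraries. Of the 71 members, 35 passed the filter on low counts and were tested. The 36 that did not were Pcdh20, Cdh9, Pcdh12 and 33 clustered genes. A gene could pass that filter through its highest class alone, so counts over tested members describe those members and not all 71.

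The members were spread over 10 chromosomes of mm10 (RefSeq positions on GRCm38.p6, the same build). Chromosome 15 held 5 type II cadherins, Cdh6, Cdh9, Cdh10, Cdh12 and Cdh18, and chromosome 8 held Cdh8, Cdh11, Cdh5, Cdh3 and Cdh13. Chromosome 18 held 45 members: Cdh2, Pcdh1, Pcdh12 and all 42 clustered genes. Pcdh11x and Pcdh19 lay on chromosome X. Several were very long genes, with Pcdh15 spanning 1553.6 kb, Cdh13 1184.9 kb and Cdh12 1149.5 kb, whereas Pcdh8 spanned 4.5 kb. Whether reads from introns were counted was not stated.

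The type I cadherins differed in how widely they were found. Cdh2, the N-cadherin of the ventricular surface, reached 1245 and 1183 CPM in RGC-like cells, 798 and 910 in IPC-like cells and 807 and 893 in excitatory neuron-like cells. MGE interneuron-like cells had 735 and 752 CPM of Cdh2, endothelial-like cells 1191 and 1476 and meningeal fibroblast-like cells 75.4 and 121. In replicate 2, 1 of 9 endothelial-like cells held 156 of 350 Cdh2 UMIs, and without it the level was 660 CPM. In replicate 4, 1 of 18 held 130 of 577, and without it the level was 1143 CPM. RGC-like cells were thus above IPC-like, excitatory neuron-like and MGE interneuron-like cells in both libraries, yet Cdh2 was called in none of the 4 comparisons below. Cdh4 (R-cadherin) was highest in Cajal-Retzius-like cells, the early Reelin-producing neurons of the cortical surface, at 563 and 824 CPM. It stood at 289 and 288 CPM in excitatory neuron-like cells, 238 and 212 in RGC-like cells and 29.7 and 69.9 in MGE interneuron-like cells. Cdh3 (P-cadherin) was highest in hem or choroid plexus-like cells, at 72.9 and 104 CPM, with 1 UMI in all RGC-like cells and none in IPC-like cells.

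**Figure D1:**
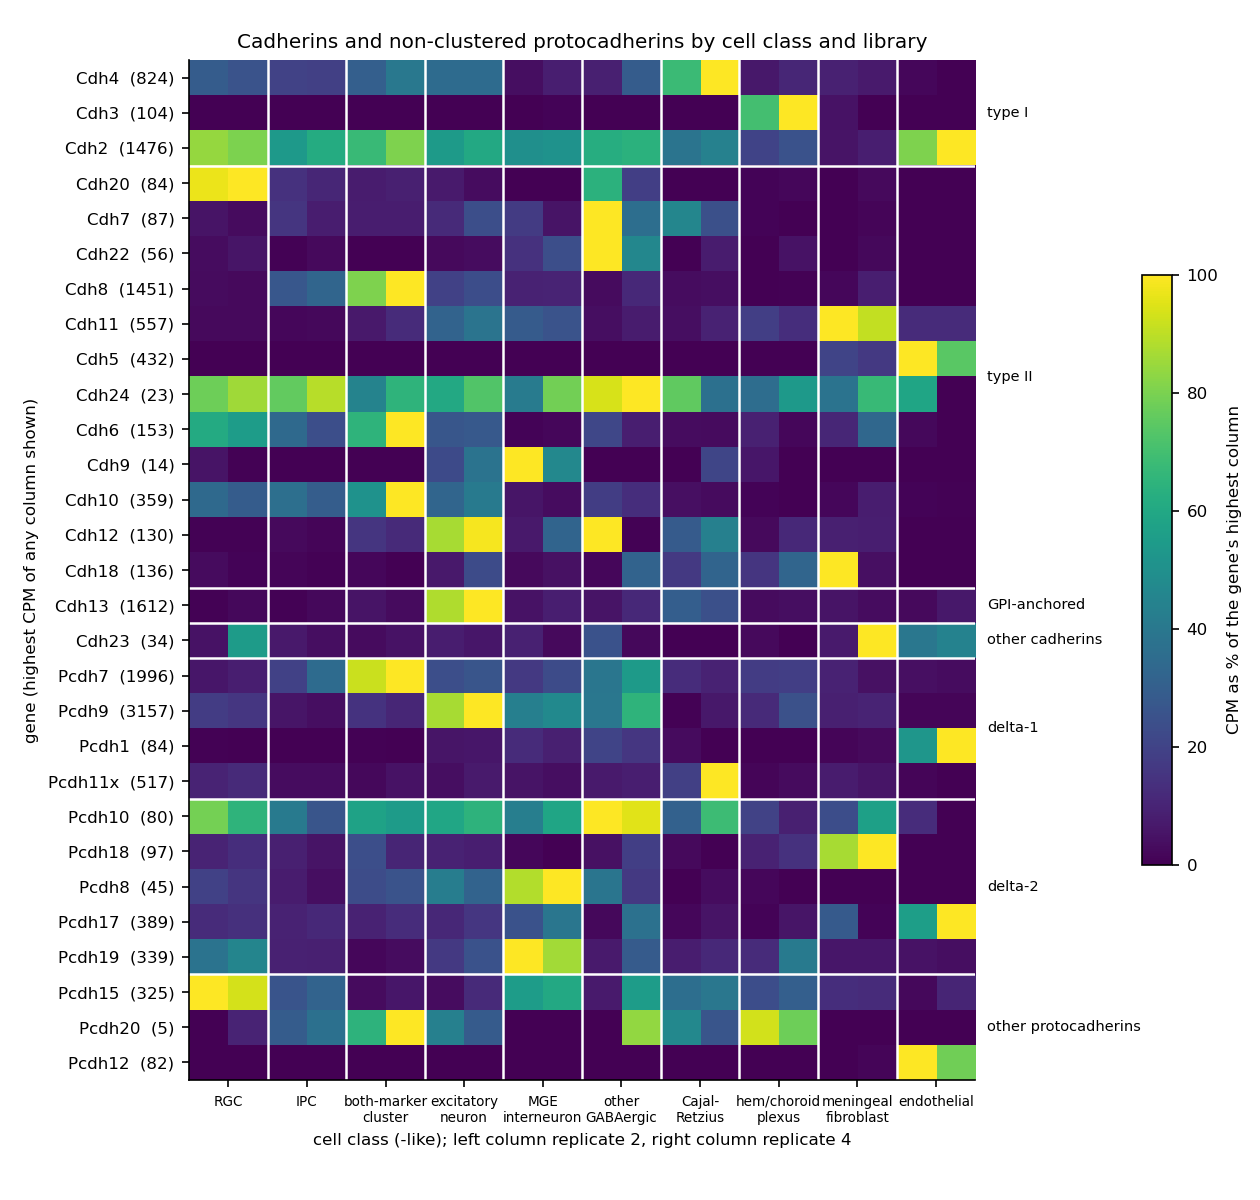
Level of the 29 members outside the clusters in each cell class, as a percentage of the gene's highest column (colour), with the left column of a class replicate 2, the right column replicate 4 and the highest CPM in brackets. Most genes had 1 or 2 bright classes, such as Cdh13 in excitatory neuron-like cells (1422 and 1612 CPM), whereas Cdh2 and Cdh24 were spread over many.

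Type II cadherins each had their own pattern. Cdh20 was highest in RGC-like cells at 81.8 and 84.4 CPM, fell to 12.1 and 8.90 in IPC-like cells and had 0 UMIs in MGE interneuron-like cells, where 3 counts would have been 2.41 and 2.72 CPM. Cdh8, a cadherin known for marking areas and layers of the cortex, had 40.9 and 39.5 CPM in RGC-like cells, 396 and 472 in IPC-like cells and 279 and 342 in excitatory neuron-like cells. Cdh6, whose known expression draws borders between brain regions, had 93.4 and 84.5 CPM in RGC-like cells and 1.61 and 2.72 in MGE interneuron-like cells. Cdh20, Cdh8 and Cdh6 thus peaked in progenitor classes among the 8 classes that held 10 or more cells in both libraries.

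Among other type II members, Cdh12 had 113 and 129 CPM in excitatory neuron-like cells against 0.606 and 0.620 in RGC-like cells, where its 12 UMIs came from both libraries together. Cdh11, the cadherin of mesenchymal cells, had 557 and 506 CPM in meningeal fibroblast-like cells. In neurons Cdh11 had 177 and 213 CPM in excitatory neuron-like and 161 and 144 in MGE interneuron-like cells, and it stayed between 10.2 and 13.9 CPM in RGC-like and IPC-like cells. Cdh10 was broad over the excitatory lineage, from 105 to 148 CPM in its 3 classes, and low in MGE interneuron-like cells (20.1 and 11.8). In the latter, 1 cell of replicate 2 held 21 of 25 Cdh10 UMIs, and without it the level was 3.21 CPM. Cdh24, which is known to bind catenins like the classical cadherins, showed little pattern, with 13.98 to 20.7 CPM in the 3 classes of the excitatory lineage.

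Cdh5, the VE-cadherin of endothelial junctions, had 432 and 322 CPM in endothelial-like cells and 0 UMIs in RGC-like cells, where 3 counts would have been 0.364 and 0.266 CPM. In replicate 2, 1 of 9 endothelial-like cells held 49 of 127 Cdh5 UMIs, and without it the level was 266 CPM. Cdh5 was also present in meningeal fibroblast-like cells at 89.2 and 71.2 CPM, in 8 of 19 and 18 of 34 cells. There 1 cell of replicate 2 held 33 of 71 UMIs, and without that cell the level was 47.8 CPM. The summed level of the 9 endothelial markers in these cells was 59.1 and 80.1 CPM, against 7091 and 7566 in endothelial-like cells, and none of the 9 was at 0. After thinning every cell to 5000 UMIs, 77.8% and 83.3% of endothelial-like and 36.8% and 28.1% of meningeal fibroblast-like cells had a Cdh5 UMI, against 0.317% of excitatory neuron-like cells of replicate 4. Median depths before thinning were 16901 and 16685 UMIs in endothelial-like, 39628 and 27313.5 in meningeal fibroblast-like and 26059.5 in those excitatory neuron-like cells. Counts of 0 and the floors given for them cover counting error only.

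Several more type II levels rested on few or single cells. In excitatory neuron-like cells of replicate 4, 1 of 646 cells held 234 of the 545 Cdh18 UMIs, and without it the level was 17.7 instead of 31.1 CPM. The 136 CPM of Cdh18 in meningeal fibroblast-like cells of replicate 2 came to 62.0% from 1 cell, and replicate 4 had 5.56 CPM. The 130 CPM of Cdh12 in GABAergic cells without a sub-class in replicate 2 came from 2 cells, 1 of which held 55 of 60 UMIs. Cdh9 was found in 3 MGE interneuron-like cells of each library, with 17 and 7 UMIs. In GABAergic cells without a sub-class (24 and 83 cells, from sub-clusters of 18 and 16, 6 and 41, and 0 and 26 cells, so that the libraries differ in makeup) Cdh7 had 86.9 and 31.3 CPM and Cdh22 had 56.5 and 26.1. In replicate 2, 22 of the 40 Cdh7 UMIs there lay in 1 cell, and 10 of the 26 Cdh22 UMIs lay in 1 cell.

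Cdh13 (T-cadherin), which lacks a cytoplasmic tail, differed strongly between excitatory neuron-like cells and progenitors. It had 1422 and 1612 CPM in excitatory neuron-like cells, 9.83 and 35.8 in RGC-like cells and 11.2 and 35.4 in IPC-like cells. Cajal-Retzius-like cells were intermediate at 481 and 395 CPM and MGE interneuron-like cells lower at 81.1 and 137. Of excitatory neuron-like cells thinned to 5000 UMIs, 77.2% and 74.6% had a Cdh13 UMI, against 2.62% and 5.74% of RGC-like cells (median depths 35486 and 26059.5 against 32506.5 and 26169 UMIs before thinning). Cdh23, a component of hair-cell tip links in the inner ear, had 1.70 and 18.9 CPM in RGC-like cells, and in replicate 4 a single cell held 100 of its 213 UMIs.

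Among the delta-1 protocadherins, Pcdh9 had 2748 and 3157 CPM in excitatory neuron-like and 1359 and 1500 in MGE interneuron-like cells. RGC-like cells had 563 and 494 CPM of Pcdh9 and IPC-like cells 180 and 118, so IPC-like cells were below both the class before and the class after them in the lineage. Pcdh7, known like other delta-1 members for binding protein phosphatase 1, had 122 and 169 CPM in RGC-like, 383 and 694 in IPC-like and 478 and 523 in excitatory neuron-like cells. Pcdh1 had 4.76 and 5.19 CPM in excitatory neuron-like cells, 0 UMIs in IPC-like cells (3 counts would have been 0.517 and 0.393 CPM), and was highest in endothelial-like cells (44.3 and 84.4 CPM). Pcdh11x, on the X chromosome, had 51.8 and 61.6 CPM in RGC-like cells, above the 16.2 and 17.2 of IPC-like cells. Its 97.2 and 517 CPM in Cajal-Retzius-like cells rested on few cells, with 187 of 365 UMIs in 1 cell of replicate 4.

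The delta-2 protocadherins, whose cytoplasmic tails are known to bind the WAVE complex that regulates actin, were lowest in IPC-like cells among the 3 classes of the excitatory lineage within each library, for all 5 members. The libraries of IPC-like and excitatory neuron-like cells overlapped for Pcdh17 and Pcdh18. Pcdh19, an X-linked gene known for its link to epilepsy, had 339 and 292 CPM in MGE interneuron-like, 128 and 155 in RGC-like, 30.6 and 30.1 in IPC-like and 56.5 and 85.5 in excitatory neuron-like cells. Pcdh8 was also highest in MGE interneuron-like cells, at 39.3 and 44.5 CPM, against 18.9 and 14.2 in excitatory neuron-like and 3.44 and 1.57 in IPC-like cells. Both MGE libraries were above both libraries of the second class for these 2 genes, among the 8 classes with enough cells. Pcdh10 ranged between 21.3 and 63.4 CPM over those 3 classes. Pcdh18 had 84.2 and 96.8 CPM in meningeal fibroblast-like cells and 38.7 and 123 in the unnamed clusters other than the one with markers of both. In these unnamed clusters 7 mural markers summed to 1179 and 2578 CPM, 10 microglia or immune markers to 1501 and 2123 and 14 RGC markers to 3466 and 2210. The 7 mural markers summed to 695 and 1575 CPM in meningeal fibroblast-like cells. Pcdh17 had 218 and 389 CPM in endothelial-like and 98.0 and 153 in MGE interneuron-like cells. In replicate 2, 1 of 9 endothelial-like cells held 39 of 64 Pcdh17 UMIs, and without it the level was 85.1 CPM.

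Of the other protocadherins, Pcdh15, the tip-link partner of Cdh23 in hair cells, had 325 and 304 CPM in RGC-like and 179 and 196 in MGE interneuron-like cells. It fell to 84.5 and 104 CPM in IPC-like and 10.99 and 38.4 in excitatory neuron-like cells, and in the latter 1 cell of replicate 4 held 268 of 674 UMIs. Pcdh12, known from endothelium, had 81.7 and 63.9 CPM in endothelial-like cells and 1 UMI among all RGC-like cells. Pcdh20 did not exceed 5.34 CPM in any of the classes plotted.

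Over these 8 classes, the highest class by mean level was RGC-like for Cdh2, Cdh6, Cdh20 and Pcdh15, excitatory neuron-like for Cdh10, Cdh12, Cdh13 and Pcdh9, and MGE interneuron-like for Cdh9, Pcdh8, Pcdh17 and Pcdh19. It was IPC-like for Cdh8 alone. For Cdh7, Cdh10, Cdh12, Cdh18, Cdh23, Pcdh12, Pcdh17 and Pcdh20 the highest and the second class overlapped. The rank of Cdh9 rested on 1 cell in each library, with 13 of 17 and 5 of 7 UMIs, and without them MGE interneuron-like cells had 3.21 and 1.82 CPM against 3.05 and 5.19 in excitatory neuron-like cells.

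The next comparisons asked which members differ between the classes of the excitatory lineage and between excitatory neurons and interneurons. Each was tested with edgeR's quasi-likelihood test on UMIs summed per library and class, with a call wherever the adjusted p (Benjamini-Hochberg, over 12991 genes) was under 0.05. The fold changes use TMM scaling and so differ somewhat from ratios of CPM. The comparisons share class sums and are not independent of each other. Cdh2, Cdh23, Cdh24 and Pcdh17, with 2 gamma genes (Pcdhga8 and Pcdhgc4), were called in none, and Pcdh8 and Pcdh15 were called in all 4. Cdh3 and Cdh5 were not called either, but had too few UMIs in the compared classes to be. In any library of these classes Cdh3 had at most 1 UMI and Cdh5 at most 5.

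Between IPC-like and RGC-like cells, most of the called members outside the clusters were lower in IPC-like cells, and all called clustered genes were higher. Of all genes, 33.0% were called in this comparison (15.6% higher and 17.4% lower in IPC-like cells). Of the 35 members tested, 9 were higher and 8 lower, with a median log2 fold change of -0.20 against -0.02 over all genes. Outside the clusters 3 of 26 were higher and 8 lower (median -0.69), and in the clusters 6 of 9 were higher and none lower (median 1.18). By role, 0 of 3 type I, 4 of 11 type II, 3 of 4 delta-1 and 3 of 5 delta-2 members were called. The type I members include Cdh3 and the type II members Cdh5, both nearly absent from these classes.

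Cdh8 rose 11.4-fold from RGC-like to IPC-like cells (log2 fold change 3.51 ± 0.54 SE, adjusted p = 0.000298), with 5905 UMIs against 783. Pcdh7 rose by 1.97 ± 0.36 on the log2 scale (adjusted p = 0.000997, edgeR) and Cdh7 by 1.56 ± 0.55 (adjusted p = 0.0453). Both were higher in both libraries. The call of Cdh7 was lost under 5 of 13 alternatives, down to 0.76 (adjusted p = 0.443) with classes made from a share of the UMIs, and that of Pcdh7 under 2 (adjusted p = 0.0632 and 0.118). For Cdh7, 1 IPC-like cell of replicate 2 held 20 of the 77 Cdh7 UMIs.

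Cdh20 fell by 2.92 ± 0.41 on the log2 scale (edgeR, adjusted p = 0.000320), with 138 UMIs in IPC-like against 1627 in RGC-like cells. All 3 delta-2 members that were called were lower: Pcdh19 (log2 fold change -2.14 ± 0.45, adjusted p = 0.00286), Pcdh8 (-1.58 ± 0.38, adjusted p = 0.00730) and Pcdh10 (-1.01 ± 0.31, adjusted p = 0.0219), and the other 2 had negative fold changes that were not called. Pcdh9 (-1.75 ± 0.63, adjusted p = 0.0477), Pcdh11x (-1.68 ± 0.52, adjusted p = 0.0256), Pcdh15 (-1.66 ± 0.55, adjusted p = 0.0336) and Cdh6 (-0.92 ± 0.33, adjusted p = 0.0471) were also lower. Of 13 alternatives, the call was lost under 6 for Pcdh9, 5 for Cdh6, 4 for Pcdh15, 2 each for Pcdh10 and Pcdh11x and 1 for Pcdh8, and under none for Cdh20 and Pcdh19. Pcdh15 came to -0.14 (adjusted p = 0.884) at a coarser clustering.

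**Figure D2:**
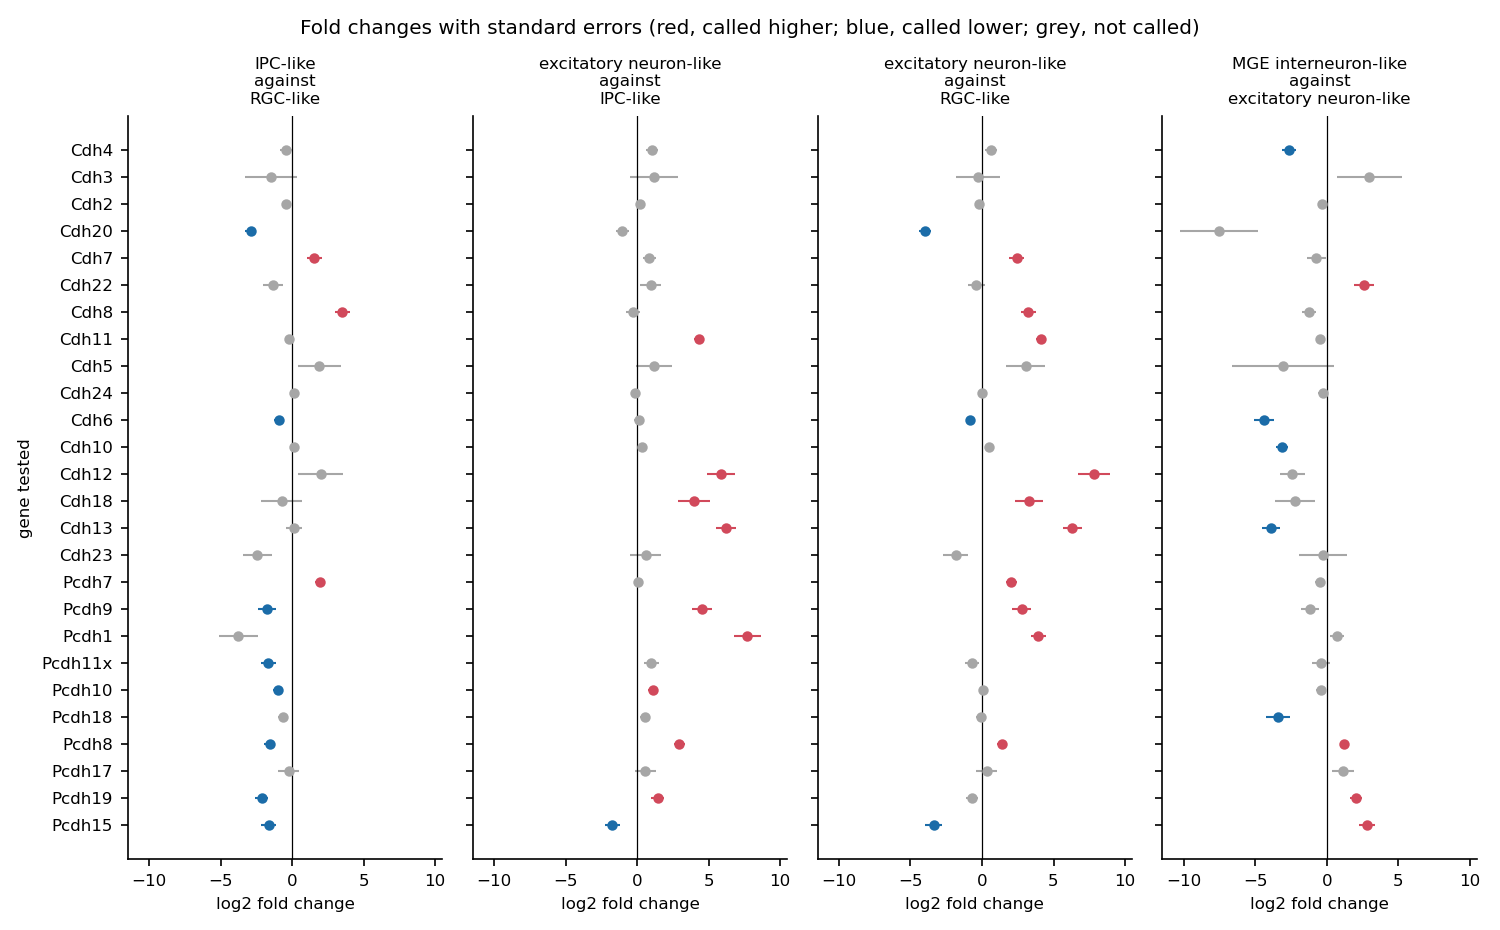
Log2 fold change with its standard error (bars) for the 26 tested members outside the clusters in 4 comparisons, red where called higher, blue where called lower and grey where not called. Cdh20 and Pcdh19 lie to the left in IPC-like against RGC-like cells, Cdh12 and Cdh13 far to the right in both comparisons of excitatory neuron-like cells, and Cdh6 and Cdh13 to the left in MGE interneuron-like cells.

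Excitatory neuron-like cells had more of most of the called members than IPC-like cells. Of all genes 37.5% were called (21.5% higher and 15.9% lower). Of the 35 members 11 were higher and 1 was lower, and the median log2 fold change was 0.59 against 0.06 over all genes. Outside the clusters 9 of 26 were higher and 1 lower (median 0.97). The share of members called was close to the share of all genes. With the library as a block, 12 members were higher and 2 lower.

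Cdh13 rose 74.0-fold (log2 fold change 6.21 ± 0.68, adjusted p = 1.37e-05, edgeR), Cdh12 57.1-fold (5.84 ± 0.98, adjusted p = 0.000415) and Cdh11 19.7-fold (4.30 ± 0.30, adjusted p = 6.73e-07). The rise of Cdh13 was larger in replicate 2 and that of Cdh12 in replicate 4. In IPC-like cells Cdh13 had 65 and 270 UMIs, with 35 of the 65 in 1 cell, and Cdh12 had 20 and 12. Pcdh9 rose 22.8-fold (4.51 ± 0.70, adjusted p = 0.000227), from 1949 UMIs in IPC-like to 100384 in excitatory neuron-like cells. Cdh18 was called higher (4.01 ± 1.12, adjusted p = 0.0128), and 3 cells held 66.9% and 76.5% of its UMIs in excitatory neuron-like cells. The call of Cdh18 was lost with doublets kept (adjusted p = 0.0507). Pcdh1 had 169 UMIs in excitatory neuron-like and 0 in IPC-like cells, which makes it at least 22.3-fold higher against a floor of 3 counts over the group.

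The 3 delta-2 members that were lower in IPC-like than in RGC-like cells were called higher here: Pcdh8 (2.96 ± 0.36, adjusted p = 4.47e-05, edgeR), Pcdh19 (1.43 ± 0.44, adjusted p = 0.0223) and Pcdh10 (1.09 ± 0.30, adjusted p = 0.0130). Both comparisons use the same IPC-like sums. Pcdh15 was the single member called lower (-1.72 ± 0.56, adjusted p = 0.0274), a call lost under 2 of 13 alternatives. Cdh8 and Pcdh7, which were higher in IPC-like than in RGC-like cells, were not called here, with log2 fold changes of -0.28 ± 0.48 and 0.09 ± 0.34.

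**Figure D3:**
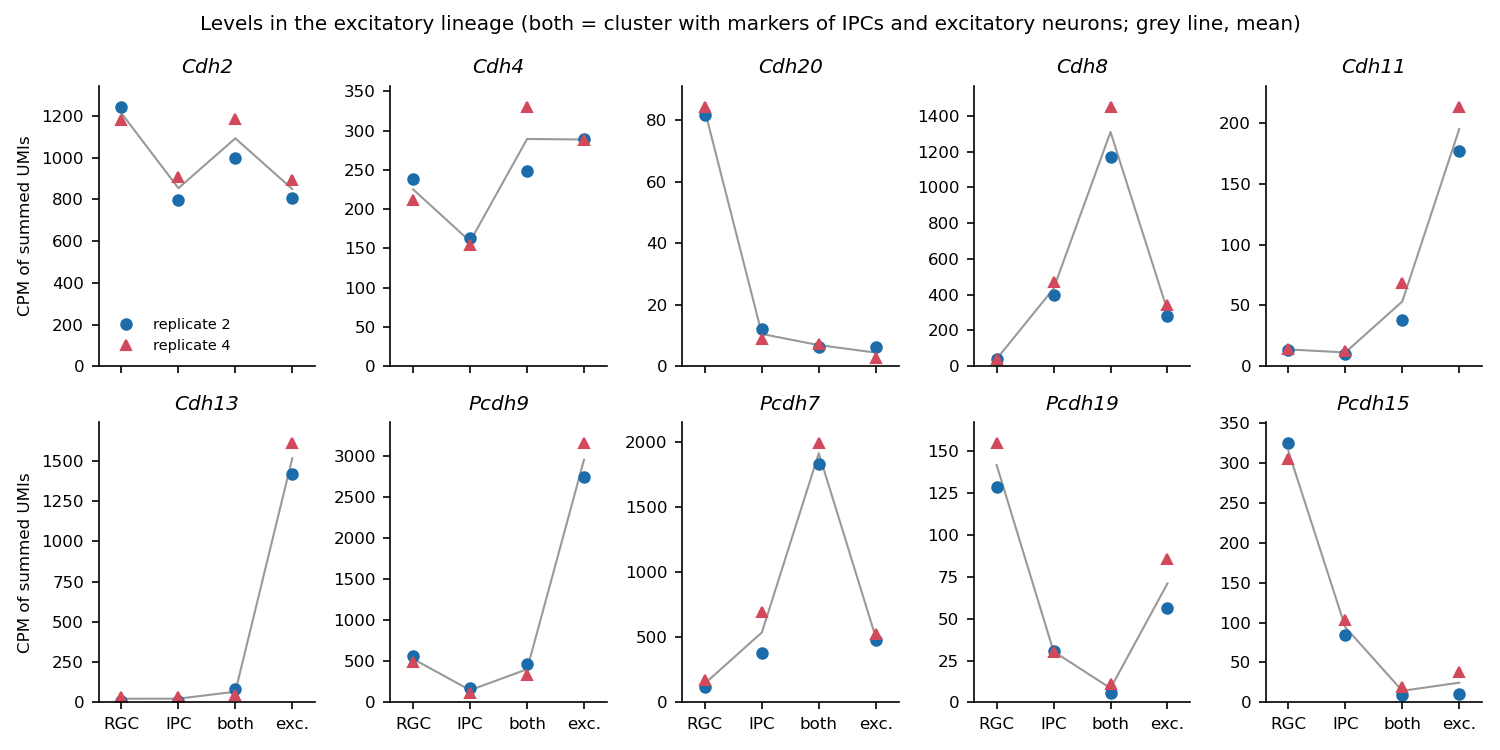
CPM of 10 members in RGC-like and IPC-like cells, the cluster with markers of both IPCs and excitatory neurons, and excitatory neuron-like cells, with circles for replicate 2, triangles for replicate 4 and a line through the means. Cdh8 and Pcdh7 peak in the cluster with markers of both (1169 and 1451 CPM, and 1838 and 1996 CPM), whereas Cdh13 and Pcdh9 are high in excitatory neuron-like cells only among these 4.

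Between the ends of the lineage, excitatory neuron-like against RGC-like cells, 54.2% of all genes were called (29.7% higher and 24.6% lower). Of the 35 members 16 were higher and 3 lower, with a median log2 fold change of 1.02 against 0.09 over all genes. Outside the clusters 10 of 26 were higher and 3 lower (median 0.42). The 5 type II cadherins that rose were Cdh12 (7.84 ± 1.12, adjusted p = 5.89e-05, edgeR), Cdh11 (4.10 ± 0.30, adjusted p = 1.66e-07), Cdh18 (3.28 ± 0.96, adjusted p = 0.0113), Cdh8 (3.23 ± 0.53, adjusted p = 0.000184) and Cdh7 (2.42 ± 0.51, adjusted p = 0.00142). Cdh13 rose by 6.32 ± 0.68 (adjusted p = 5.12e-06). Of the 4 delta-1 members Pcdh1 (3.95 ± 0.55, adjusted p = 9.65e-05), Pcdh9 (2.77 ± 0.65, adjusted p = 0.00272) and Pcdh7 (2.06 ± 0.36, adjusted p = 0.000292) rose. Pcdh8 (1.38 ± 0.29, adjusted p = 0.00172) was the only delta-2 member called.

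With DESeq2's size factors the median of all genes moved to -0.03, and 15 members were higher and 3 lower. The 3 members lower in excitatory neuron-like than in RGC-like cells were Cdh20, 15.5-fold (-3.95 ± 0.42, adjusted p = 1.23e-05, edgeR), Pcdh15, 10.4-fold (-3.38 ± 0.59, adjusted p = 0.000295), and Cdh6, 1.75-fold (-0.81 ± 0.32, adjusted p = 0.0475). The call of Cdh6 did not hold under 7 of the 13 alternatives. The fall of Pcdh15 was larger in replicate 2 than in replicate 4. In the latter 1 excitatory neuron-like cell held 268 of 674 Pcdh15 UMIs, and without it the level was 23.1 CPM.

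Interneuron-like cells of the MGE, which migrate into the dorsal telencephalon from below, differed from excitatory neuron-like cells in 19.5% of all genes (6.35% higher and 13.2% lower). Of the 35 members 4 were higher and 5 lower, all outside the clusters, with a median log2 fold change of -0.39 against -0.13 over all genes. The scaling mattered here: with DESeq2's size factors the median of all genes moved to -0.02 and the share of calls that were higher from 32.5% to 43.2%, while the counts of members stayed at 4 and 5.

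The 4 members higher in MGE interneuron-like cells were Pcdh15 (2.80 ± 0.59, adjusted p = 0.00468, edgeR), Cdh22 (2.60 ± 0.68, adjusted p = 0.0166, 25 UMIs against 55), Pcdh19 (2.03 ± 0.44, adjusted p = 0.00573) and Pcdh8 (1.23 ± 0.31, adjusted p = 0.0156). The 5 lower ones were Cdh6 (-4.39 ± 0.68, adjusted p = 0.000548), Cdh13 (-3.91 ± 0.62, adjusted p = 0.000663), Pcdh18 (-3.44 ± 0.85, adjusted p = 0.0118), Cdh10 (-3.15 ± 0.41, adjusted p = 0.000135) and Cdh4 (-2.66 ± 0.47, adjusted p = 0.00139). Cdh6 had 5 UMIs in MGE interneuron-like cells and 1413 in excitatory neuron-like cells, whereas Cdh10 had 38 and 4510. The call of Pcdh18 was lost under 3 of 13 alternatives, with -0.74 (adjusted p = 0.373) at a minimum of 500 genes per cell, that of Pcdh8 under 2 and that of Cdh22 under 1. Pcdh18 had 2 UMIs in the MGE class, so the ratio of summed levels, 10.3-fold, has a 95% counting interval of 2.82 to 85.2. Cdh11 did not pass the test, at 161 and 144 CPM in MGE interneuron-like against 177 and 213 in excitatory neuron-like cells (-0.47 ± 0.27).

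The levels also varied between clusters of a class, which is given as a description because clusters were made from the same cells, though without the members among the genes used. Among the 7 clusters of excitatory neuron-like cells, Cdh13 ran from 23.6 and 19.1 CPM in cluster 1, which still had 181 and 213 CPM of the IPC gene Eomes, to 2732 and 2996 in cluster 18, which led in Tle4 (758 and 794 CPM) and Fezf2 (290 and 227), genes known from deep-layer neurons. Cdh8 ran the other way, with 1354 and 1871 CPM in cluster 1 and 74.7 and 26.1 in cluster 18. Cdh12 had 290 and 237 CPM in cluster 14 and was lowest in cluster 11 (2.80 and 15.7). Cdh4 was likewise high in clusters 1 and 14 (727 and 994, and 524 and 529 CPM) and lowest in cluster 11 (18.98 and 9.02).

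The clusters of the progenitor classes also differed. Cluster 8 of the RGC-like class, which had less Meis2 (844 and 1287 CPM) than the other RGC-like clusters, had 1008 and 808 CPM of Pcdh15, and the other 3 RGC-like clusters had at most 335 in either library. In the IPC-like class, cluster 10 had 316 and 272 CPM of Pcdh15, 12.8 and 85.4 of Cdh8 and 938 and 1057 of Pcdh7, while cluster 13 had 1318 and 1125 of Cdh8. Cdh20 split the RGC-like class in the opposite sense, with 112 and 114 CPM in cluster 7 and 4.40 and 11.8 in cluster 8.

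**Figure D4:**
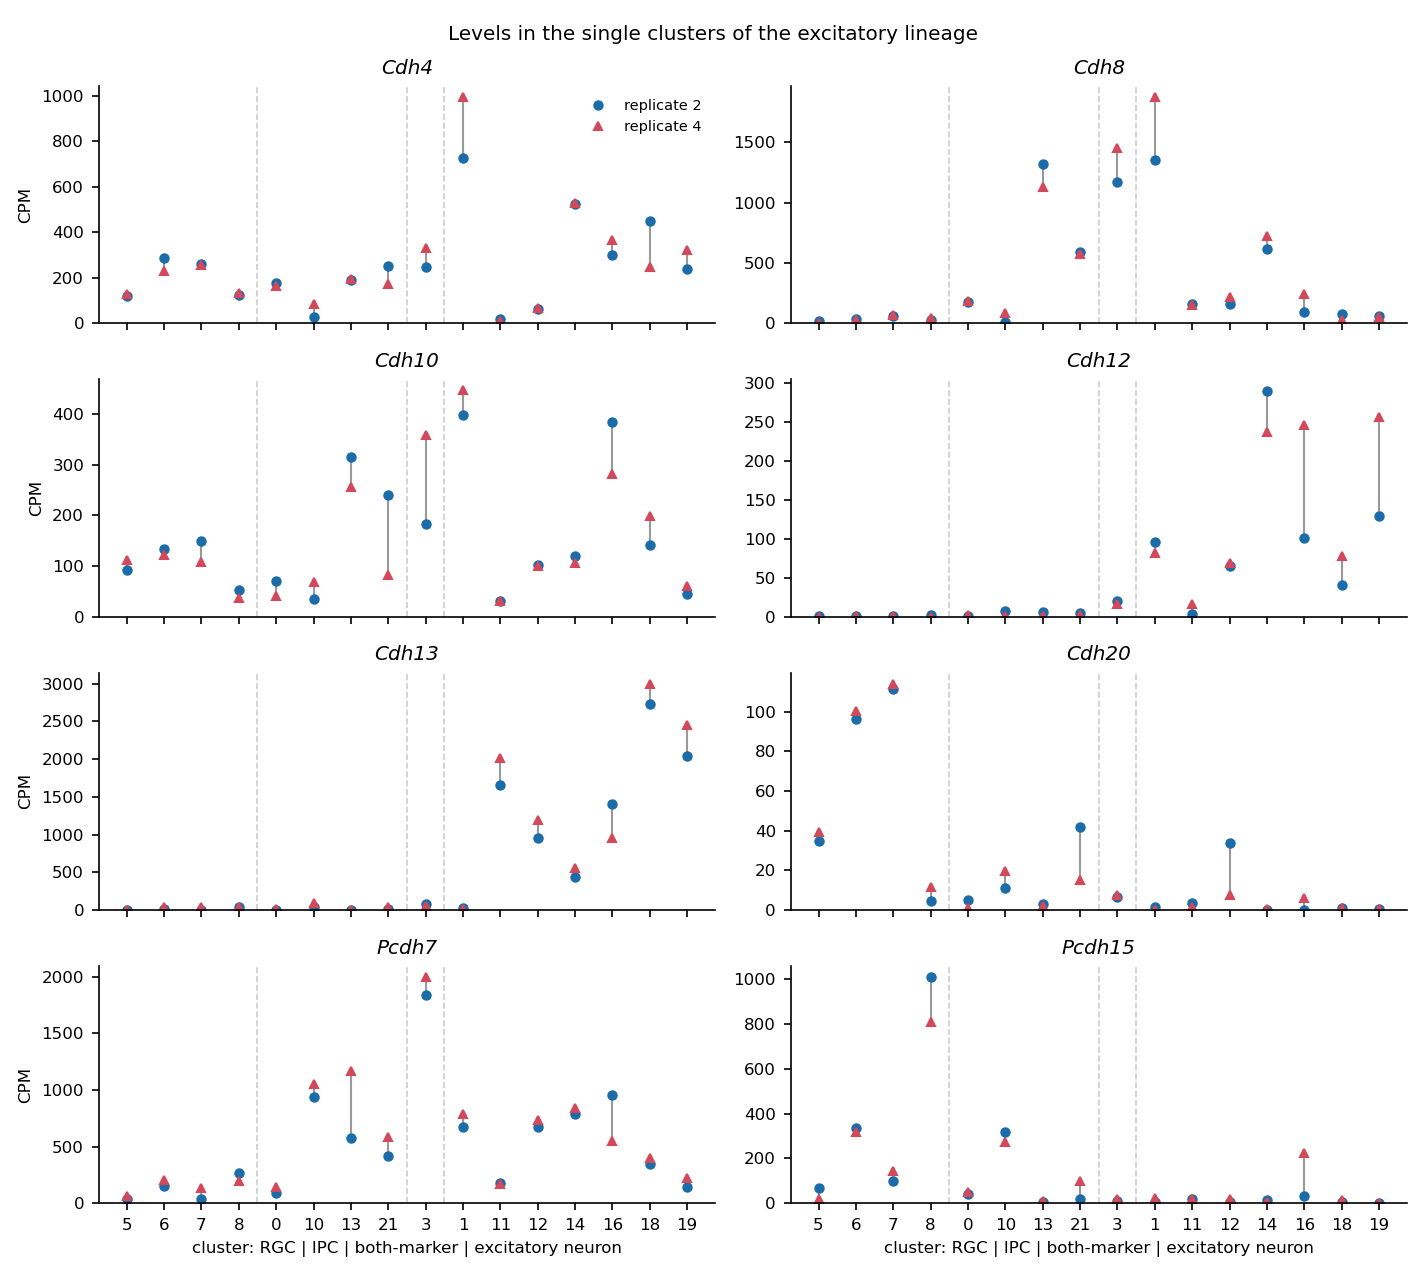
CPM of 8 members in the clusters of the excitatory lineage (numbered, with dashed lines between RGC-like, IPC-like, the unnamed cluster with markers of both, and excitatory neuron-like clusters), with circles for replicate 2, triangles for replicate 4 and a line between them. Pcdh15 stands out in RGC-like cluster 8, Pcdh7 in cluster 3, and Cdh13 in excitatory neuron-like clusters other than cluster 1.

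In the MGE interneuron-like class, sub-cluster g3, with 1391 and 1584 CPM of Sst, had more Pcdh7 (732 and 983 CPM) and Pcdh19 (474 and 452) than sub-cluster g1 (218 and 121 of Pcdh19). Cdh11 was highest in sub-cluster g0, at 320 and 458 CPM. These sub-clusters held 17 and 22 cells (g3), 18 and 10 (g0) and 19 and 50 (g1).

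The clustered protocadherins were detected at low levels, and their counts have a limit of their own. All 21 gamma genes of the annotation and 14 of 15 alpha genes end in exons shared with another gene of the cluster, so a 3′ read often cannot tell them apart, whereas this holds for 2 of 22 beta genes. The symbol Pcdha11 labels 2 rows with different identifiers at the same RefSeq position. How reads in shared exons were counted was not stated in the sources used here. If they were left out, alpha and gamma counts are too low, and so are their sums. If they were counted, the gene they were given to is uncertain. Sums over an array are given first, but they would not restore reads that were left out.

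The arrays differed in where they were transcribed. The 8 alpha genes summed to 0.970 and 1.15 CPM in RGC-like cells, 3.62 and 6.55 in IPC-like cells, 24.97 and 23.9 in excitatory neuron-like cells and 38.5 and 34.5 in MGE interneuron-like cells, with 0 UMIs in hem or choroid plexus-like and endothelial-like cells. The 13 beta genes summed to 3.52 and 6.02, 13.8 and 14.01, 24.4 and 30.7, and 41.8 and 40.0 CPM in the same order of the 4 classes. The 21 gamma genes, at 51.7 and 49.4 CPM in RGC-like cells, were at 110 and 101 in IPC-like, 100 and 89.2 in excitatory neuron-like and 108 and 108 in MGE interneuron-like cells. Alpha and beta sums were thus higher at each step from RGC-like to IPC-like to excitatory neuron-like cells in both libraries, while the gamma sum was higher in IPC-like than in RGC-like cells and not above it in excitatory neuron-like cells.

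**Figure D5:**
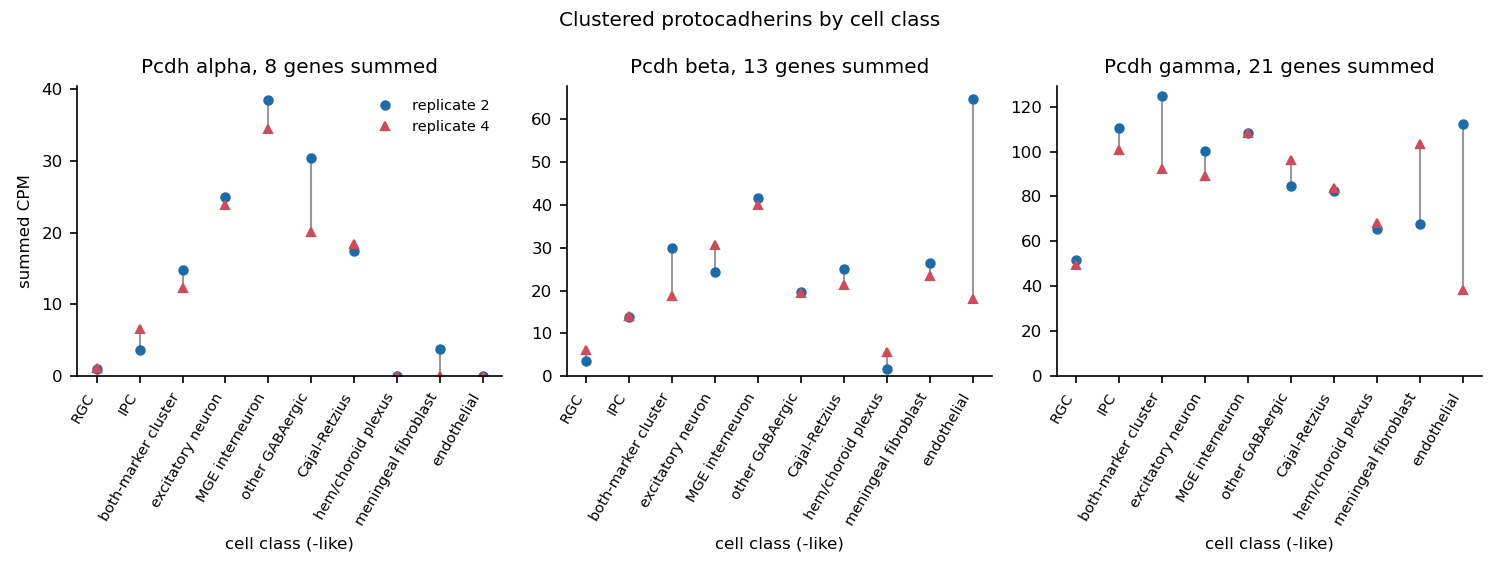
Summed CPM of the alpha, beta and gamma members in the cell classes plotted, with circles for replicate 2, triangles for replicate 4 and a line between them. The alpha sum is near 0 in RGC-like cells (0.970 and 1.15) and at 38.5 and 34.5 in MGE interneuron-like cells, whereas the gamma sum is at least 38.4 CPM in every class plotted.

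Because only 9 clustered genes passed the filter, all 42 were also counted by whether both libraries of a class lay above both of the other. From RGC-like to IPC-like cells, 4 of 8 alpha, 7 of 13 beta and 17 of 21 gamma genes were higher and none lower, where 29.9% of the 16229 genes with at least 20 UMIs in each library were higher and 41.3% lower. From IPC-like to excitatory neuron-like cells, 8 of 8 alpha and 9 of 13 beta genes were higher, but only 2 of 21 gamma genes, with 8 lower (32.0% higher and 43.1% lower over all such genes). Against RGC-like cells, excitatory neuron-like cells were higher for 8 alpha, 13 beta and 19 gamma genes (34.6% and 47.8% over all genes). MGE interneuron-like cells were above excitatory neuron-like cells for 4 alpha, 4 beta and 7 gamma genes and below for 3 gamma genes (29.2% and 34.8%).

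Of the 9 clustered genes tested, the alpha row Pcdha11 (ENSMUSG00000102206) rose at both steps, by 2.32 ± 0.58 on the log2 scale into IPC-like cells (adjusted p = 0.00862, edgeR) and by 2.20 ± 0.42 into excitatory neuron-like cells (adjusted p = 0.00123), on 10, 34 and 345 UMIs. With classes made from a share of the UMIs the first step came to 0.66 (adjusted p = 0.623), so that call was lost. Pcdhga12 was higher in IPC-like than in RGC-like cells (17.9 and 17.8 against 9.46 and 6.73 CPM, log2 fold change 1.23 ± 0.22, adjusted p = 0.000793). Pcdhga6, Pcdhga7, Pcdhga10 and Pcdhgb5 were called higher there too, with log2 fold changes from 1.18 to 1.48, and the call of Pcdhga10 was lost under 4 of 11 alternatives (adjusted p up to 0.0670). With the library as a block 8 members were higher instead of 9, and the call of Pcdhgb5 was the one lost. Pcdhgc3, one of the C-type gamma genes known to be less variable between cells, was not among them and was called higher only in excitatory neuron-like cells, by 1.42 ± 0.41 against IPC-like cells (adjusted p = 0.0154) and 1.97 ± 0.41 against RGC-like cells (adjusted p = 0.00120). Between MGE interneuron-like and excitatory neuron-like cells none of the 9 was called.

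Single cells held few clustered genes at this depth. After thinning each cell to 10000 UMIs, RGC-like cells had a mean of 0.527 and 0.577 different clustered genes with a UMI, IPC-like cells 1.25 and 1.17, excitatory neuron-like cells 1.39 and 1.31 and MGE interneuron-like cells 1.63 and 1.75. Thinning left out shallower cells, 16 and 54 of the RGC-like, 20 and 69 of the excitatory neuron-like and 5 and 38 of the MGE interneuron-like cells. Before thinning the means were 1.74 and 1.35 in RGC-like and 4.11 and 3.14 in excitatory neuron-like cells, with median depths of 32506.5 and 26169 against 35486 and 26059.5 UMIs. No alpha gene had a UMI in 78.2% and 80.2% of thinned excitatory neuron-like cells and in 99.6% and 99.5% of RGC-like cells. A cell without a UMI of a gene at this depth may still transcribe it, so the number of genes a cell uses was not measured.

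The genes known to act with these proteins were described from lists of their own. Of the 11 catenins and linkers tested, 1 was higher and 3 lower in IPC-like than in RGC-like cells (15.6% and 17.4% of all genes) and 4 were higher and 4 lower in excitatory neuron-like than in RGC-like cells (29.7% and 24.6%). Ctnna1 (alphaE-catenin) was at 228 and 225 CPM in RGC-like, 198 and 194 in IPC-like and 27.6 and 26.7 in excitatory neuron-like cells, a log2 fold change of -2.78 ± 0.21 from RGC-like to excitatory neuron-like cells (adjusted p = 2.61e-07, edgeR). Ctnna2 (alphaN-catenin), its neuronal relative, went from 238 and 426 to 4113 and 4431 CPM between the same classes (3.97 ± 0.45, adjusted p = 8.22e-06). The 2 alpha-catenins thus changed in opposite directions, while Cdh2 was not called.

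Distant members of the superfamily also moved in both directions. Of 12 tested, 7 were higher and 2 lower in excitatory neuron-like than in RGC-like cells. Celsr3 rose (4.87 ± 0.37, adjusted p = 4.48e-07, edgeR), and Celsr1 (-3.29 ± 0.22, adjusted p = 1.08e-07) and Fat1 (-4.34 ± 0.32, adjusted p = 2.15e-07) fell. Of the 8 WAVE complex and delta-2 partners, 4 were higher and none lower, and of the 6 proteases that cut cadherins 2 were higher and none lower. Among 11 genes tested of those known to regulate the clustered arrays, mostly cohesin subunits and chromatin proteins, 7 were lower and 1 higher in excitatory neuron-like than in RGC-like cells, with Stag1 at -1.14 ± 0.18 (adjusted p = 0.000159) and Smchd1 at -0.95 ± 0.15 (adjusted p = 0.000108). Over all genes, 29.7% were higher and 24.6% lower in this comparison, and no difference between a list and all genes was tested.

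For the members Cdh2, Cdh13, Pcdh7 and Pcdh9, the genes of most similar pattern were found by Spearman correlation of levels over the 16 class sums, 2 libraries of 8 classes that share their cells' depth. Cdh2 was most like Parp1 (rho 0.956), Hira (0.944) and Pde3b (0.941), and Cdh13 most like Hs3st5 (0.915), Nptn (0.909) and Gfod1 (0.874). Pcdh9 was most like Osbpl6 (0.876), Atxn1 (0.874) and Dok6 (0.859), and Pcdh7 most like Fryl (0.850), Sort1 (0.835) and Jarid2 (0.832). These are the closest of many genes and are given as a description.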

How the data were processed

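Dissociated cells of the E14.5 dorsal telencephalon were profiled by the study with a droplet kit that tags the 3′ end of transcripts. The authors deposited, for each of 2 libraries, a filtered matrix of raw UMI counts per gene and cell, made per the submitters' processing notes with Cell Ranger 7.0.0 and mm10, and whether intronic reads were counted was not given in the sources used here. Barcodes needed 1000 genes or more and no more than 10% mitochondrial UMIs, and 14 and 15 doublets called by Scrublet were removed, leaving a median of 30810 and 22948.5 UMIs per cell. The deposited files used here hold no cell types, so classes were rebuilt with scanpy 1.11.5 (2000 variable genes without the members, 30 components, Leiden resolution 1, 25 clusters, and 9 sub-clusters of GABAergic cells) and may differ from the study's. A cluster was named from markers when at least 3 were raised, and the naming rule was made stricter after the clusters were seen. UMIs were summed per library and class, and 8 classes, those holding 10 or more cells in both libraries, entered 1 edgeR 4.0.16 quasi-likelihood fit (TMM, filterByExpr, R 4.3.3). Of 6 planned comparisons 4 were run. MGE interneuron-like cells were not compared with CGE interneuron-like or striatal projection neuron-like cells, which had 5 and 1 cells in replicate 2.

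The members and lists were chosen with earlier results of these data known. Up to 8 called members in each direction, ranked by fold change and with the same sign in both libraries, were named per comparison, and the other called members were added after their values were seen, as were the clusters described. Class sums of a library come from the same cell suspension, so library numbers pair them. Deviations from the class means correlated between same-numbered sums at 0.123 to 0.305 over the 6 pairs of the 4 compared classes (median 0.229), and at 0.0174 to 0.305 over all 28 pairs. On simulated counts, 100 of the better-counted genes per comparison were changed by 1.5 on the log2 scale and 100 by 3. Other genes were left unchanged and libraries were drawn independently, unlike in the data. Changes of 1.5 were recovered to 96% in IPC-like against RGC-like cells (12665 genes in the fit) and 87% in excitatory neuron-like against IPC-like (12687). They were recovered to 91% in excitatory neuron-like against RGC-like (12706) and 77% for MGE interneurons against excitatory neurons (12692). In the same order, 5.34%, 2.09%, 5.47% and 6.08% of all calls were false. Alternatives were other scalings, filters, clusterings, DESeq2 1.42.0, the library as a block, and single libraries.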

Additional observations from a re-analysis of the deposited data

Results flagged for a closer look

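The cluster with markers of both IPCs and excitatory neurons entered none of the comparisons, and 4 members were higher there than in each of the 8 classes of the fit. Pcdh7 had a mean of 1916.7 CPM (1838 and 1996), against 933 in GABAergic cells without a sub-class (24 and 83 cells of differing sub-clusters), the next highest. Cdh8 had a mean of 1309.58 CPM (1169 and 1451), against 434 in IPC-like cells. Cdh10 had a mean of 270.519 CPM (182 and 359), against 132 in excitatory neuron-like cells, and Cdh6 a mean of 126.053 CPM (99.3 and 153), against 88.9 in RGC-like cells. These differences were not tested, because the cluster was left unnamed.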

How the results depend on the processing

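Of 45 named fold changes, recomputed 577 times with a test over 13 alternatives, 529 kept their direction and call, 48 kept the direction and lost the call, and none reversed. From single libraries, which allow no test, 20 of 90 moved by more than the spread and none reversed. The library as a block lost none of these 45 calls, and lost that of Pcdhgb5 in IPC-like against RGC-like cells. It gave 8 members higher and 9 lower in IPC-like against RGC-like cells, 12 and 2 in excitatory neuron-like against IPC-like, 16 and 3 against RGC-like, and 4 and 6 in MGE interneuron-like cells. Each time 35 members were tested, and 4617, 5202, 7329 and 2774 of 12991 genes were called. Counts of members moved with several settings. In IPC-like against RGC-like cells 9 of 35 tested were higher and 8 lower (4282 of 12991 genes called). With all genes of at least 1 count 16 of 71 were higher (4748 of 24885 genes called). In a fit of the compared classes alone 30 of 48 were called, 20 higher (6249 of 13728). At 5% mitochondrial UMIs 8 of 28 were called, 3 higher and 5 lower (3278 of 11628). At Leiden resolution 2, 10 of 34 were called and 3 were lower (4128 of 13311). With the members among the clustering genes 5 of 35 were lower (3604 of 13006 called). With classes made from a random share of the UMIs of every cell, 11 of 27 were called, 3 higher (3279 of 11173). In excitatory neuron-like against IPC-like cells 11 of 35 were higher and 1 lower (4866 of 12991 genes called). With all genes 24 of 71 were called, 22 higher and 2 lower (5413 of 24885 genes). In a fit of the compared classes 20 of 65 were called, 19 higher (7196 of 14605). With at least 500 genes 2 of 35 were lower (4299 of 12499 called), at 5% mitochondrial UMIs 2 of 28 (3764 of 11628). With the members among the clustering genes 2 of 35 were lower (4998 of 13006 called), and with part of the UMIs 0 of 27 (3854 of 11173). In excitatory neuron-like against RGC-like cells 16 of 35 were higher and 3 lower (7046 of 12991 genes called). With all genes 50 of 71 were called, 44 higher and 6 lower (8147 of 24885 genes). In a fit of the compared classes 53 of 66 were called, 48 higher and 5 lower (9945 of 15340). By DESeq2's Wald test 38 of 71 were called, 35 higher (7887 of 24885). With part of the UMIs 5 of 27 were lower (5861 of 11173 called). In MGE interneuron-like cells against excitatory neurons 4 of 35 were higher and 5 lower (2537 of 12991 genes called). With all genes 17 of 71 were called and 12 were lower (3480 of 24885 genes). In a fit of the compared classes 8 of 64 were lower (3188 of 13646 called). With part of the UMIs 2 of 27 were higher (1918 of 11173 called). At 5% mitochondrial UMIs 1661 of 11628 genes were called. The cause of these moves was not tested. The mean number of clustered genes in an excitatory neuron-like cell, 1.35, was 0.688 after thinning to 5000 UMIs and 3.63 without thinning, and the share of these cells with a Cdh2 UMI, 94.9%, was 76.1% at 2000 UMIs and 99.4% without thinning.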
